A study of Homo sapiens with 16 samples.

Results

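The 4 HOX clusters of the human genome were examined in Hi-C contact maps of K562 cells, an established leukaemia line, after 4 lengths of digestion with the restriction enzyme HindIII. The clusters were taken as the 20 kb bins of build hg19 that lie over HOXA on chromosome 7 (27120001 to 27260000), HOXB on chromosome 17 (46600001 to 46820000), HOXC on chromosome 12 (54320001 to 54460000) and HOXD on chromosome 2 (176940001 to 177060000). This gave 31 bins, 7 for HOXA, 11 for HOXB, 7 for HOXC and 6 for HOXD, out of 154795 bins in the genome. All 31 were among the 137198 bins of chromosomes 1 to 22 and X that were listed in every library. Contacts of these bins were followed to 1.5 Mb on each side of a cluster and between the clusters.

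All libraries came from the same line with no genetic change and no other treatment. Cells were fixed with 2% formaldehyde, digested for 0.25, 1, 3 or 12 h, and ligated inside intact nuclei. Each time had 2 replicate libraries, 8 in all, and each library was sequenced in 2 runs, of which the deeper second one was used. The labels do not say whether replicates came from separate cultures, so p-values measure only the spread between these libraries, which may be technical.

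HOX genes code for homeodomain transcription factors that give cells along the body axis their position. In each cluster the genes lie in the order of their use: paralogue group 1 acts towards the head and group 13 towards the tail, the limb tips and the genitals. The HOXD cluster is known to sit between a pair of flanking regulatory landscapes, with genes near HOXD13 reading the side of EVX2 and genes near HOXD1 the side of MTX2. In blood progenitors the HOXA and HOXB genes are the better known members, and HOXA9 is known for its part in leukaemia.

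By the RefSeq gene table (GRCh38.p14, used for names and order only) the clusters hold 39 HOX genes, 11 in HOXA, 10 in HOXB, 9 in HOXC and 9 in HOXD. Along the chromosome HOXA13 is at the right end of HOXA and HOXB runs from HOXB1 to HOXB13. HOXC starts with HOXC13, and HOXD runs from HOXD13 to HOXD1. In the table HOXC4, HOXC5 and HOXC6 are listed last in HOXC. HOXC4 and HOXC5 share a RefSeq promoter window, so the listed order of these genes was not read as their order along the cluster. The right end of HOXC is called the HOXC4 end here, after its gene of the lowest number. Of these end genes, HOXA13 and HOXD13 are known for patterning of the hand and foot, HOXB13 for the prostate, HOXC13 for hair and nail, HOXB1 and HOXD1 for early head-end patterning, and HOXC4 is the gene of its cluster nearest to the head end. The clusters also share neighbours. SNX10 and SKAP2 precede HOXA as SNX11 and SKAP1 precede HOXB, CALCOCO1 and ATP5MC2 precede HOXC as CALCOCO2 and ATP5MC1 follow HOXB, and EVX1 follows HOXA13 as EVX2 precedes HOXD13. The positions of these genes on hg19 were not used here, so bins are named by coordinate and by the end of the cluster they are nearest to.

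The clusters share microRNA genes too, which are printed here because copies of the same family recur across the clusters. The RefSeq mature sequences follow, with the seed (bases 2 to 8) in capitals.
hsa-miR-196b-5p (HOXA): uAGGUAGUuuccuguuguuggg
hsa-miR-196a-5p (HOXB and HOXC): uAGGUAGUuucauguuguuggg
hsa-miR-10a-5p (HOXB): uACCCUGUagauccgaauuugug
The miR-196 copies of 3 clusters had the same seed, AGGUAGU, which differs from that of miR-10a.

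HindIII cuts at AAGCTT, a site that reads the same on both strands. RefSeq promoter windows of 250 bases before a gene's start were searched for it, because digestion time is the variable of the study. The table has 27 entries for 20 HOX genes, 7 of them for HOXA3, and 26 distinct windows, since HOXC4 and HOXC5 share one. HOXB is represented by HOXB1 alone and HOXC by HOXC4 and HOXC5 alone, so the shares below are mostly those of HOXA and HOXD. The site was in 2 of the 27 entries, both of HOXA3, against 5.02% of all 35116 entries. CG pairs, common in promoters of developmental genes, numbered at least 20 in 48.1% of the HOX entries and in 32.4% of all entries. Printed are a HOXA3 window with its HindIII site in capitals, and the windows of HOXA13 and HOXD13, whose ends of the clusters lie closest to the contact minima described below, with CG pairs in capitals. Coordinates are of GRCh38.p14, another build than that of the contact maps.
HOXA3, chr7:27122373-27122622, minus strand: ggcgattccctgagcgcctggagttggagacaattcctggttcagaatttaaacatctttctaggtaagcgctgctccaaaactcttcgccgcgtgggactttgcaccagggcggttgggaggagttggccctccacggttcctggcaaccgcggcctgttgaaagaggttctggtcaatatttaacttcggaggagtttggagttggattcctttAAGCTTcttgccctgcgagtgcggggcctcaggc
HOXA13, chr7:27200092-27200341, minus strand: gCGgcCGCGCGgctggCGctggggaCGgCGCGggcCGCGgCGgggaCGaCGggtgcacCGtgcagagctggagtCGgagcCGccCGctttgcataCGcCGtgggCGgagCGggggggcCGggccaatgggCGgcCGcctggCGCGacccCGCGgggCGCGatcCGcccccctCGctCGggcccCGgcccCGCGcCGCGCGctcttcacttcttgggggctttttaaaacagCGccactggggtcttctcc
HOXD13, chr2:176092471-176092720, plus strand: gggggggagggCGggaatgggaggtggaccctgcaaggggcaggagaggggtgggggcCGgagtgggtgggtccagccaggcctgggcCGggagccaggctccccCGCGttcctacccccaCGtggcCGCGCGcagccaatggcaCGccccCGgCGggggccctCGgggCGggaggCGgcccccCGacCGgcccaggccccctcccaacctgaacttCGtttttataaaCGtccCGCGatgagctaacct
The HOXA13 window held 40 CG pairs and the HOXD13 window 21. The HOXA3 window held 13.

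The deposited values are balanced signals, from which whole contacts were recovered. The 8 libraries held 62777251 to 176412222 contacts, and depth was higher at 12 h than at 0.25 h. The clusters themselves had 4525 to 15306 contacts with other bins per library for HOXA, 5471 to 19305 for HOXB, 2018 to 8102 for HOXC and 5411 to 16920 for HOXD. The label K562 was checked on 2 known features of the line. Contacts between the ABL1 and BCR loci, joined in its Philadelphia chromosome, were 121 to 138 times those expected between chromosomes 9 and 22, and the 8 bins over the deleted CDKN2A locus had 0 contacts with other bins in every library.

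**Figure D1:**
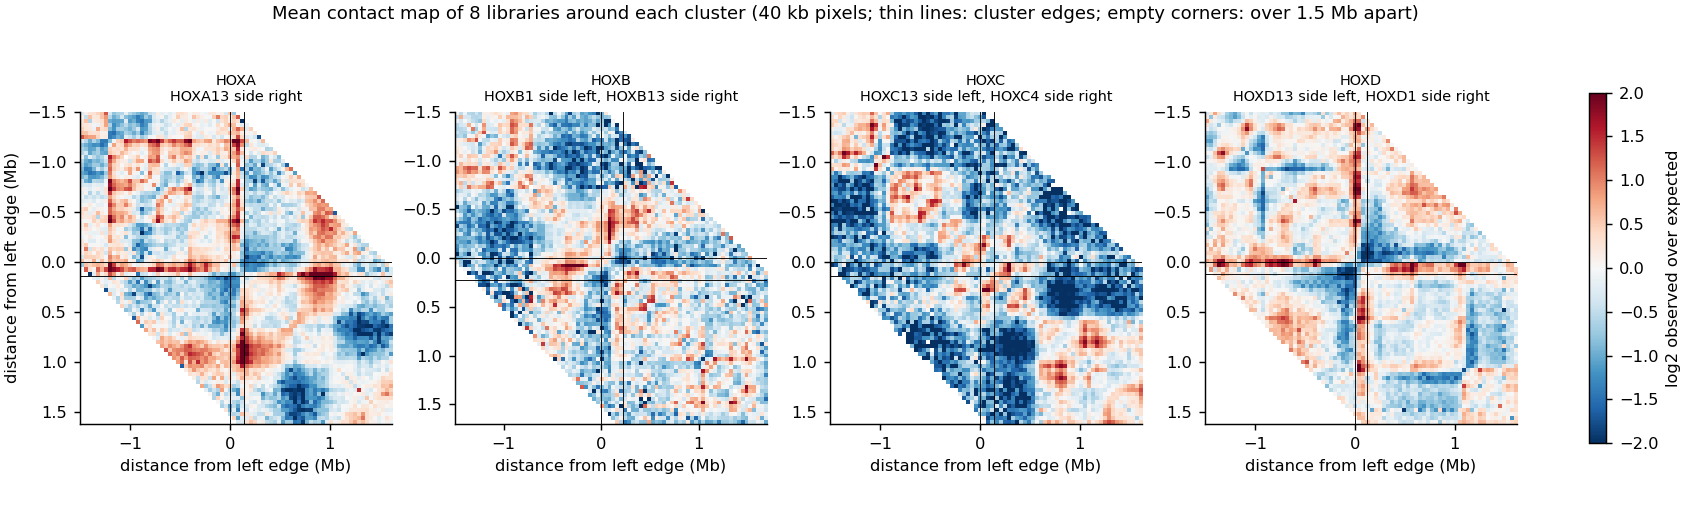
Mean contact maps of the 8 libraries around each cluster, with both axes in Mb from the cluster's left edge and colour as log2 observed over expected in 40 kb pixels. In HOXA, HOXB and HOXD a blue wedge of few contacts starts at the cluster and separates the left flank from the right one, and red stripes run from the cluster into its flanks.

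Each cluster held a minimum of insulation, the score that tells how many contacts pass over a bin. The score is the log2 of the mean balanced contact between the 200 kb to the left and the 200 kb to the right of a bin, over the chromosome mean, so bins that few contacts pass over score low. Its median over 134511 bins was -0.04, and 1% of bins were below -1.05. The deepest of the 4 minima lay in HOXD, followed by HOXA and HOXB, and that of HOXC was shallow. On recovered contacts without balancing the order was another, with -1.74 in HOXA, -1.24 in HOXD, -1.12 in HOXC and -0.75 in HOXB.

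In HOXD the lowest bin was the second from the HOXD13 end, starting at 176.96 Mb. It scored -1.60 and -1.61 at 0.25 h, -1.75 and -1.66 at 1 h, -1.68 and -1.63 at 3 h, then -1.63 and -1.59 at 12 h for replicates 1 and 2. The mean was -1.64 ± 0.05 (SD, n = 8), and 0.0550% of all bins scored lower. It was the lowest of its cluster in 7 of 8 libraries, and 4 of the 6 HOXD bins had means below -1.

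The HOXA minimum was the second bin from the HOXA13 end, at 27.22 Mb. Its scores were -1.47 and -1.62 at 0.25 h, -1.26 and -1.17 at 1 h, -1.24 and -1.22 at 3 h, then -1.39 and -1.36 at 12 h. The mean was -1.34 ± 0.15 (SD, n = 8), it was the lowest HOXA bin in 8 of 8 libraries, and both 0.25 h libraries were below all others. From the left end of HOXA the scores went down step by step, from a mean of -0.26 in the first bin to -1.26 in the fifth.

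HOXB had its minimum in the middle, in the sixth of 11 bins, at 46.70 Mb. That bin was the lowest of its cluster in 6 of 8 libraries. The scores there were -1.27 and -1.07 at 0.25 h, -1.10 and -1.11 at 1 h, -1.11 and -0.99 at 3 h, then -1.11 and -0.95 at 12 h, with a mean of -1.09 ± 0.09 (SD, n = 8). Both ends of HOXB were above the genome median, with means of 0.25 ± 0.06 in the bin at 46.60 Mb on the HOXB1 side and 0.36 ± 0.06 in the bin at 46.80 Mb on the HOXB13 side (SD, n = 8).

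In HOXC the lowest bin was the third from the HOXC13 end, at 54.36 Mb. It scored -0.46 and -0.47 at 0.25 h, -0.34 and -0.56 at 1 h, -0.32 and -0.33 at 3 h, then -0.22 and -0.14 at 12 h. The mean of -0.36 ± 0.14 (SD, n = 8) lay above those of all 3 other minima, and the lowest HOXC library was above the highest library of each other cluster. At the HOXC4 end the score was high, 0.60 ± 0.10 (SD, n = 8) in the bin at 54.44 Mb, and 96.6% of all bins scored lower.

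Local minima of the mean score with a prominence of at least 0.2 were called boundaries, of which there were 6075 in the genome, with a median score of -0.45. Each cluster held 1 of them. Of all boundaries 0.642% were deeper than that of HOXD, 2.62% deeper than that of HOXA, 7.21% deeper than that of HOXB, and 61.4% deeper than that of HOXC. Within 1.5 Mb of the clusters there were 5 further boundaries around HOXA, 12 around HOXB, 10 around HOXC and 7 around HOXD. The cluster's own boundary was the deepest in its window for HOXA, HOXB and HOXD. In HOXC 5 of the 10 flank boundaries were deeper than the one inside the cluster, at 54.86 Mb (-0.95) and 54.60 Mb (-0.48) on the HOXC4 side and at 53.40 Mb (-0.84), 53.26 Mb (-0.64) and 53.90 Mb (-0.39) on the HOXC13 side.

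**Figure D2:**
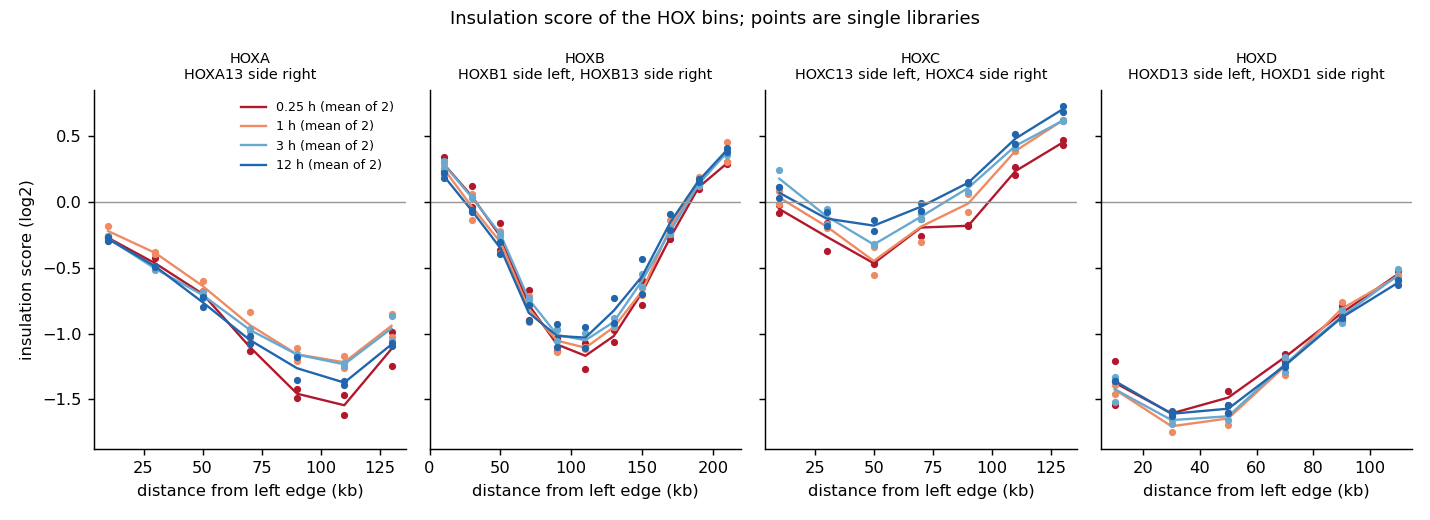
Insulation score (log2, y axis) against distance from the cluster's left edge in kb, with lines for the mean of 2 libraries per digestion time and points for single libraries. The curves of all 4 times go through a minimum inside each cluster, at -1.64 in HOXD and -0.36 in HOXC on the mean of 8 libraries.

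The same split was seen in the contacts among the 200 kb on each side of the minimum. Observed over expected compares the balanced signal with the mean at the same distance on the same chromosome and library. Across the HOXD minimum it was 0.320 ± 0.012, against 1.07 ± 0.04 among the bins to its left and 0.978 ± 0.021 among those to its right (SD, n = 8). Across the HOXA minimum it was 0.396 ± 0.039, with 1.06 ± 0.05 and 1.07 ± 0.01 on the sides, and across the HOXB minimum 0.471 ± 0.030, with 1.04 ± 0.02 and 1.15 ± 0.05. HOXC had 0.784 ± 0.075 across and 1.37 ± 0.05 and 1.27 ± 0.06 on the sides. In each cluster the highest library across the minimum was below the lowest library on either side. These sides were placed by the minimum itself, so the drop is a description of its depth.

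Contacts among the bins of a cluster were fewer than expected for their distance in every library. Pairs of bins that cross the minimum are among them, so this is not a separate result from the insulation score. Observed over expected was 0.766 ± 0.060 in HOXA, 0.736 ± 0.024 in HOXB, 0.793 ± 0.053 in HOXC and 0.749 ± 0.042 in HOXD (SD, n = 8). The values overlapped between clusters, from 0.641 in the lowest HOXA library to 0.900 in the highest HOXC library. They rest on 4173, 9861, 1963 and 4127 contacts over all libraries.

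The contacts of each cluster turned from the left side to the right side within the cluster. This was measured as the left-right balance, the log2 of a bin's balanced contacts with the 1.5 Mb to its left over those with the 1.5 Mb to its right. Neighbouring bins and bins of the same cluster are included, so the balance is not a measure of flank contacts alone. It shares crossing contacts with the insulation score, so a change of side near a minimum is not a separate result. The median balance of 129971 bins was near 0, and 90% of bins lay between -0.83 and 0.82.

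In HOXA the 5 bins from the left end leaned left, the side of SKAP2 and SNX10, in 8 of 8 libraries. The last 2 leaned right, the side of EVX1 and JAZF1, in 8 of 8. The strongest left lean was in the bin at 27.16 Mb, with 1.41 ± 0.09 (SD, n = 8). The last bin, at 27.24 Mb, leaned most to the right, with -2.04 and -1.80 at 0.25 h, -1.60 and -2.01 at 1 h, -1.63 and -1.48 at 3 h, then -1.66 and -1.59 at 12 h. Of all bins 0.132% leaned further to the right on the mean of 8 libraries.

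HOXD changed sides after its second bin. The bins at 176.94 and 176.96 Mb, nearest to HOXD13 and EVX2, had means of 1.27 ± 0.17 and 1.01 ± 0.14. The remaining 4 bins leaned right, the side of MTX2, in 8 of 8 libraries. The strongest right lean was -1.88 ± 0.11 (SD, n = 8) in the bin at 177.00 Mb, where the libraries ranged from -2.07 to -1.72 and 0.0669% of all bins leaned further. The change from the second to the third bin was from 1.01 to -1.06 over 20 kb.

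HOXB changed sides at its insulation minimum. The 6 bins from the HOXB1 end leaned left, the side of SKAP1 and SNX11, in 8 of 8 libraries. The 5 bins at the HOXB13 end leaned right, the side of TTLL6 and CALCOCO2, in 8 of 8. The bin at 46.66 Mb leaned most to the left, with 1.54 ± 0.18, and the bin at 46.78 Mb most to the right, with -0.91 ± 0.27 (SD, n = 8).

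In HOXC the first bin, at the HOXC13 end, leaned left in 8 of 8 libraries with 0.93 ± 0.16, and the last 3 leaned right in 8 of 8. The 3 bins between them had libraries on both sides of 0. The bin at 54.42 Mb had the strongest right lean, -1.12 ± 0.16 (SD, n = 8). Taken as whole clusters, the share of contacts with the flanks that went to the left was 56.3 ± 0.9% in HOXA, 55.4 ± 1.6% in HOXB, 45.2 ± 1.6% in HOXC and 42.8 ± 0.8% in HOXD (SD, n = 8).

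**Figure D3:**
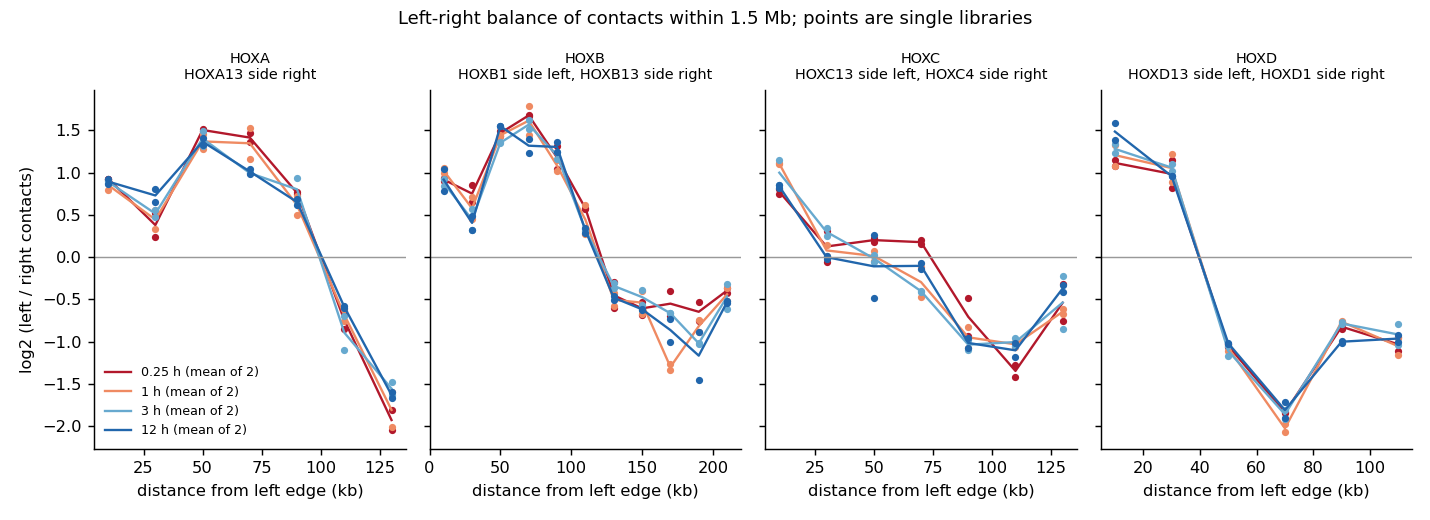
Left-right balance of contacts (log2, y axis) against distance from the cluster's left edge in kb, with lines for the mean of 2 libraries per digestion time and points for single libraries. Bins at the left of each cluster lie above 0 and bins at the right below 0, with 1 change of side in HOXA, HOXB and HOXD in all 8 libraries.

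The 2 bins at each end of a cluster were set against each other at the same distance from the bins, in steps of 100 kb up to 1.5 Mb, so that a step covers a shifted stretch of flank for the far end. In HOXD the end nearer to the flank had the higher mean in 15 of 15 steps on the left and 13 of 15 on the right. At 400 to 500 kb the HOXD13 end had 3.16 ± 0.28 times the expected contacts with the left flank and the HOXD1 end 0.595 ± 0.119 times. On the right side the HOXD1 end had 2.44 ± 0.21 times and the HOXD13 end 1.16 ± 0.13 times at that distance, but at 500 to 600 kb the HOXD13 end was higher, with 1.93 ± 0.12 against 1.31 ± 0.15 (SD, n = 8). In HOXA the nearer end was higher in 13 of 14 steps on each side, and at 300 to 400 kb the HOXA13 end had 2.35 ± 0.20 times the expected contacts with the right flank, against 0.533 ± 0.205 times for the left end. HOXB had the nearer end higher in 8 of 14 steps on the left and 12 of 14 on the right. In HOXC the nearer end was higher in 11 of 14 steps on the left and in 3 of 14 on the right, where at 200 to 300 kb the HOXC13 end had 1.17 to 1.8 times and the HOXC4 end 0.545 to 0.997 times the expected contacts over the 8 libraries.

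Single pairs of a HOX bin and a flank bin reached over 10 times the expected contacts. Of the possible pairs at least 100 kb and up to 1.5 Mb apart, those with at least 20 contacts over all libraries were kept, 529 of 981 for HOXA, 405 of 1476 for HOXB, 204 of 988 for HOXC and 591 of 844 for HOXD. Pairs with few contacts thus entered only where their level was high. A mean observed over expected of at least 4 was found in 39 HOXA pairs (14 left, 25 right), 14 HOXB pairs (14 left, 0 right), 8 HOXC pairs (1 left, 7 right) and 34 HOXD pairs (22 left, 12 right). Of 4050773 pairs of the genome under the same filter 0.520% reached 4.

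The highest HOXD pair joined the third bin, at 176.98 Mb, to a flank bin at 177.50 Mb, 520 kb away on the MTX2 side. Its observed over expected was 13.7 and 13.3 at 0.25 h, 13.4 and 10.1 at 1 h, 13.9 and 10.4 at 3 h, then 11.7 and 11.1 at 12 h, from 560 contacts in all. All 8 libraries were above 10, and 99.991% of the genome's pairs had a lower mean. The same HOXD bin reached 8.58 ± 1.35 with a bin at 178.00 Mb, 1020 kb away, and the bin at 176.96 Mb reached 7.73 ± 1.03 with a bin at 176.22 Mb, 740 kb to the left (SD, n = 8).

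HOXA had its highest pair between the minimum bin at 27.22 Mb and a bin at 28.12 Mb, 900 kb to the right, with a mean of 11.6 ± 4.3 from 81 contacts. The values were 7.79 and 16.1 at 0.25 h, 7.33 and 18.4 at 1 h, 11.3 and 13.8 at 3 h, then 6.59 and 11.9 at 12 h. Replicate 2 was above replicate 1 at each time, and single libraries held 6 to 19 contacts. The bin at 27.22 Mb also reached 9.86 ± 3.27 with a bin at 27.96 Mb, and the bin at 27.18 Mb reached 10.2 ± 4.7 with a bin at 25.92 Mb, 1260 kb to the left, from 28 contacts (SD, n = 8).

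In HOXB all 3 chosen pairs pointed left. The highest joined the fifth bin, at 46.68 Mb, to a bin at 46.22 Mb, 460 kb away, with 5.61 and 6.08 at 0.25 h, 6.31 and 6.24 at 1 h, 6.20 and 5.26 at 3 h, then 6.48 and 6.27 at 12 h, from 287 contacts. The spread over the 8 libraries was small, 6.06 ± 0.41 (SD, n = 8). The bin at 46.66 Mb reached 5.58 ± 1.09 with a bin at 46.28 Mb and 5.46 ± 0.95 with a bin at 46.34 Mb.

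In HOXC the highest pair joined the minimum bin at 54.36 Mb to a bin at 54.60 Mb, 240 kb away on the HOXC4 side. Its values were 4.71 and 7.03 at 0.25 h, 5.55 and 8.66 at 1 h, 7.12 and 9.69 at 3 h, then 4.68 and 4.67 at 12 h, from 197 contacts. The bin at 54.40 Mb reached 6.05 ± 0.85 with a bin at 54.58 Mb, and the bin at 54.36 Mb reached 4.14 ± 0.78 with a bin at 54.14 Mb (SD, n = 8). Of the 12 flank bins in these pairs, 7 lay on or next to a boundary of the flank (58.3%), as did 101 of all 594 flank bins. Both were taken from the same maps, and the pairs were chosen for their level, so these counts are a description.

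Digestion time was compared between 0.25 h and 12 h for the coverage of each bin, its contacts with other bins per 1000000 such contacts summed over all bins of the library. In HOXC 5 of 7 bins had less coverage at the short digestion, most of all the second bin from the HOXC13 end, while the bins at the HOXD13 end had more. The test was limma across 137197 bins with at least 100 contacts on average, all 4 times sharing 1 estimate of the spread, with Benjamini-Hochberg adjustment. Of all bins 55.8% passed an adjusted p of 0.05, 20.9% higher and 35.0% lower at 0.25 h. Of the 31 HOX bins 19 passed (61.3%), 3 higher and 16 lower, and with the replicate number as a block 22 passed, 3 higher and 19 lower, with 60.4% of all bins. The shares called in either direction were near those of all bins, so they are no result about HOX as a whole. Without the block, lower calls were 16 of 31 against 35.0% of all bins, and whether these differ was not tested. Counts per cluster and values of single bins are from the fit without the block, unless the block is named.

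None of the HOXC bins was higher at 0.25 h. The bin at 54.34 Mb had 2.12 and 1.74 contacts per 1000000 at 0.25 h, 2.27 and 2.22 at 1 h, 2.21 and 2.23 at 3 h, then 3.28 and 3.24 at 12 h. Both 12 h libraries were above all others, both 0.25 h libraries were below all others, and 1 h and 3 h overlapped. The log2 difference was -0.76 (SE 0.08, adjusted p = 2.04e-07), and it was the largest of the 31 bins in size. The first bin, at 54.32 Mb, was lower too, with 4.50 and 3.99 at 0.25 h against 5.17 and 5.05 at 12 h (log2 difference -0.27, SE 0.06, adjusted p = 0.000696).

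The 2 bins at the HOXC4 end did not pass in the fit without a block. The bin at 54.42 Mb had 2.93 and 2.90 contacts per 1000000 at 0.25 h, 3.13 and 2.92 at 1 h, 3.04 and 3.00 at 3 h, then 2.82 and 3.09 at 12 h, so that the times overlapped (log2 difference -0.02, SE 0.07, adjusted p = 0.858). The last bin, at 54.44 Mb, had a log2 difference of -0.13 (SE 0.06) that did not pass, with an adjusted p of 0.0622, but passed with the replicate number as a block (adjusted p = 0.0436). HOXC bins were also among the less covered ones, with 6.39% to 33.3% of all bins below them on the mean of 8 libraries.

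HOXB had 6 of 11 bins lower at 0.25 h, against 35.0% of all bins, and the 3 bins at the HOXB13 end were among them. The bin at 46.78 Mb had the largest difference of HOXB, with 2.00 and 1.73 contacts per 1000000 at 0.25 h, 2.26 and 1.85 at 1 h, 2.19 and 2.41 at 3 h, then 2.55 and 2.48 at 12 h. Its log2 difference was -0.44 (SE 0.09, adjusted p = 0.000486), and the 0.25 h and 12 h libraries did not overlap. The last bin, at 46.80 Mb, had 4.74 and 5.10 at 0.25 h against 6.18 and 6.61 at 12 h (log2 difference -0.38, SE 0.06, adjusted p = 6.61e-06). At the HOXB1 end the bin at 46.60 Mb had -0.12 (SE 0.06, adjusted p = 0.0719), which passed with the replicate number as a block (adjusted p = 0.0338), and the bin at 46.62 Mb -0.04 (SE 0.06, adjusted p = 0.601).

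In HOXD the 2 bins at the HOXD13 end were higher at 0.25 h. The first bin, at 176.94 Mb, had 8.74 and 9.69 contacts per 1000000 at 0.25 h, 8.59 and 8.43 at 1 h, 8.71 and 8.70 at 3 h, then 8.18 and 7.72 at 12 h. The 12 h libraries were the lowest of the 8 (log2 difference 0.21, SE 0.05, adjusted p = 0.00073). The second bin, at 176.96 Mb, had 9.84 and 10.5 at 0.25 h against 8.90 and 8.75 at 12 h. The third, at 176.98 Mb, went the other way, with 7.78 and 8.49 at 0.25 h against 8.88 and 8.79 at 12 h (log2 difference -0.12, SE 0.05, adjusted p = 0.0375), a call that was lost without the first 0.25 h replicate, without either 12 h replicate, with the other times left out of the fit and under median-of-ratios scaling. The last bin, at the HOXD1 end, was the most covered of the 31, with 12.2 to 13.5 contacts per 1000000 and no call (adjusted p = 0.235).

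HOXA had 4 bins lower and 1 higher at 0.25 h, where 35.0% of all bins were lower and 20.9% higher. The fourth bin, at 27.18 Mb, had 2.20 and 2.45 contacts per 1000000 at 0.25 h, 2.37 and 2.33 at 1 h, 2.33 and 2.24 at 3 h, then 2.78 and 2.65 at 12 h (log2 difference -0.22, SE 0.08, adjusted p = 0.0175). The last bin, at the HOXA13 end, had 9.23 and 9.22 at 0.25 h against 8.68 and 8.54 at 12 h, with 9.04 to 9.38 between them. Its log2 difference of 0.10 (SE 0.04, adjusted p = 0.0458) was just inside the threshold and did not pass when any library was left out. The first bin, at 27.12 Mb, was lower at 0.25 h, with 7.61 and 8.12 against 8.90 and 8.79 (log2 difference -0.17, SE 0.05, adjusted p = 0.00476).

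With contacts between chromosomes alone 1 of 31 HOX bins and 6.24% of all bins passed. Leaving out the second 12 h replicate left 12 of 31, with 40.2% of all bins. Median-of-ratios scaling turned the split of all calls from 28639 higher and 47980 lower to 38542 higher and 37943 lower, and that of the HOX calls from 3 and 16 to 4 and 12. In the first sequencing run of the same libraries, at 50 kb, 3 of 12 HOX bins passed, all lower at 0.25 h, against 27.0% of all bins.

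**Figure D4:**
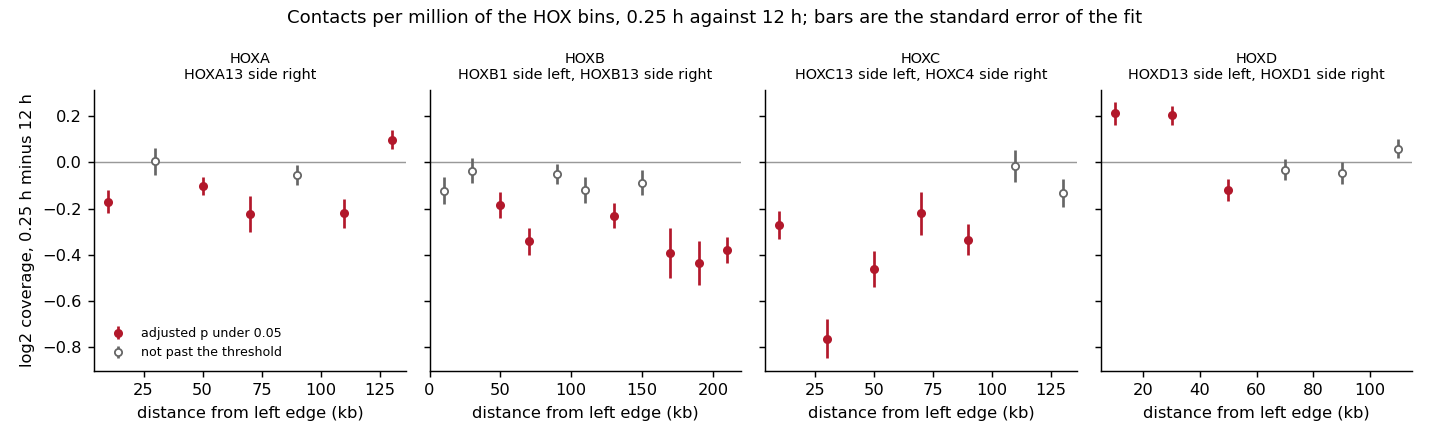
Log2 difference in coverage (contacts with other bins, scaled by library size), 0.25 h minus 12 h, with the standard error of the fit (y axis) against distance from the cluster's left edge in kb. Filled points passed an adjusted p of 0.05, with the lowest at -0.76 in HOXC and the highest at 0.21 at the HOXD13 end.

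The clusters also differed in how many of their contacts went to other chromosomes. The share was 6.62% to 7.43% in HOXD, 9.01% to 10.3% in HOXA, 15.0% to 16.5% in HOXB and 16.4% to 20.2% in HOXC over the 8 libraries, against 12.1% to 13.6% for all bins together. HOXD and HOXA lay below all bins and HOXB and HOXC above them in every library. Clusters were set against all bins of the genome only, and the level of their own chromosomes was not compared.

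Contacts that stayed inside a bin were counted apart, because they hold undigested or self-joined DNA beside true contacts. These parts could not be told apart, so the share inside is not a measure of true contacts alone. The share of a bin's contacts that stayed inside was higher at 0.25 h in bins of all 4 clusters, and in about the same share of bins over the genome. The median bin of the genome had 7.32% and 7.81% at 0.25 h, 6.87% and 6.92% at 1 h, 6.54% and 6.46% at 3 h, then 4.27% and 4.20% at 12 h. The test was run on the log2 ratio of contacts inside to contacts with other bins. Of all bins 65.9% passed, 65.7% higher and 0.227% lower at 0.25 h, and of the HOX bins 21 of 31 passed (67.7%), all higher. The HOX share was near that of all bins, so the count is no result about the HOX clusters as a whole. A HOXB bin with 0 contacts inside in every library is among the 21, and without it 20 of the HOX bins passed, 4 of 7 in HOXA, 7 of 11 in HOXB, 3 of 7 in HOXC and 6 of 6 in HOXD.

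The largest difference was in the sixth HOXC bin, at 54.42 Mb, where 20.7% and 34.0% of contacts stayed inside at 0.25 h, 13.6% and 15.6% at 1 h, 13.2% and 14.4% at 3 h, then 3.09% and 3.34% at 12 h. The 0.25 h libraries were the highest and the 12 h libraries the lowest (log2 difference 3.44, SE 0.39, adjusted p = 3.67e-05). Its coverage with other bins did not pass the test. The bin at 54.38 Mb had the highest share of the 31, 41.6 ± 9.3% at 0.25 h and 8.46 ± 0.15% at 12 h (SD, n = 2). The bin between them, at 54.40 Mb, passed too, with 9.62 ± 0.16% at 0.25 h and 5.33 ± 0.11% at 12 h (SD, n = 2). The bins at 54.34, 54.36 and 54.44 Mb had at most 2.19% inside in every library and did not pass.

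At the HOXD13 end the bin at 176.94 Mb had 7.66% and 12.7% at 0.25 h, 5.86% and 7.02% at 1 h, 5.03% and 5.65% at 3 h, then 1.28% and 2.10% at 12 h (log2 difference 2.71, SE 0.28, adjusted p = 2.56e-05). At the HOXD1 end the bin at 177.04 Mb had 12.9 ± 3.4% at 0.25 h and 4.06 ± 0.05% at 12 h (SD, n = 2, log2 difference 1.78, SE 0.18, adjusted p = 2.39e-05). The 4 bins between them stayed under 5% in every library. The smallest HOXD difference, at 177.02 Mb, was 0.61 (SE 0.19, adjusted p = 0.0174).

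HOXA alternated from bin to bin. The bin at the HOXA13 end had 9.49% and 16.6% at 0.25 h, 8.46% and 8.78% at 1 h, 7.55 ± 1.34% at 3 h, and 3.57 ± 0.05% at 12 h (SD, n = 2) (log2 difference 1.96, SE 0.25, adjusted p = 7.06e-05). Its neighbour, the minimum bin at 27.22 Mb, had 1 to 8 contacts inside per library, at most 0.618%, and no call (adjusted p = 0.553). The bins at 27.14 and 27.18 Mb were low in the same way, and the bins between them were high.

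In HOXB the largest difference was in the third bin, at 46.64 Mb, with 17.3% and 27.1% at 0.25 h, 12.1% and 16.6% at 1 h, 11.1% and 13.3% at 3 h, then 5.66% and 5.19% at 12 h (log2 difference 2.28, SE 0.32, adjusted p = 0.000108). The bin at the HOXB13 end had 18.8% and 26.0% at 0.25 h against 8.64% and 8.98% at 12 h. Next to the third bin, the bin at 46.66 Mb had 1 to 25 contacts inside per library and a log2 difference of -0.81 (SE 0.58, adjusted p = 0.24). That difference was -1.996 without 0.25 h replicate 1 and 0.383 without 0.25 h replicate 2, which held 1 contact inside. Its sign thus rested on 0.25 h replicate 2. The ninth bin, at 46.76 Mb, had 0 contacts inside in all 8 libraries, with 109 to 449 contacts with other bins in each. It was called higher by the fit (adjusted p = 0.0251), but with 0 contacts this difference comes from the 0.5 contacts added and the depth, and is no measured change. No contacts inside were found in 3231 of 137197 bins of the genome. With bins under 5 contacts inside left out, an alternative chosen after seeing the data, 21 of 27 HOX bins and 71.7% of all bins passed.

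**Figure D5:**
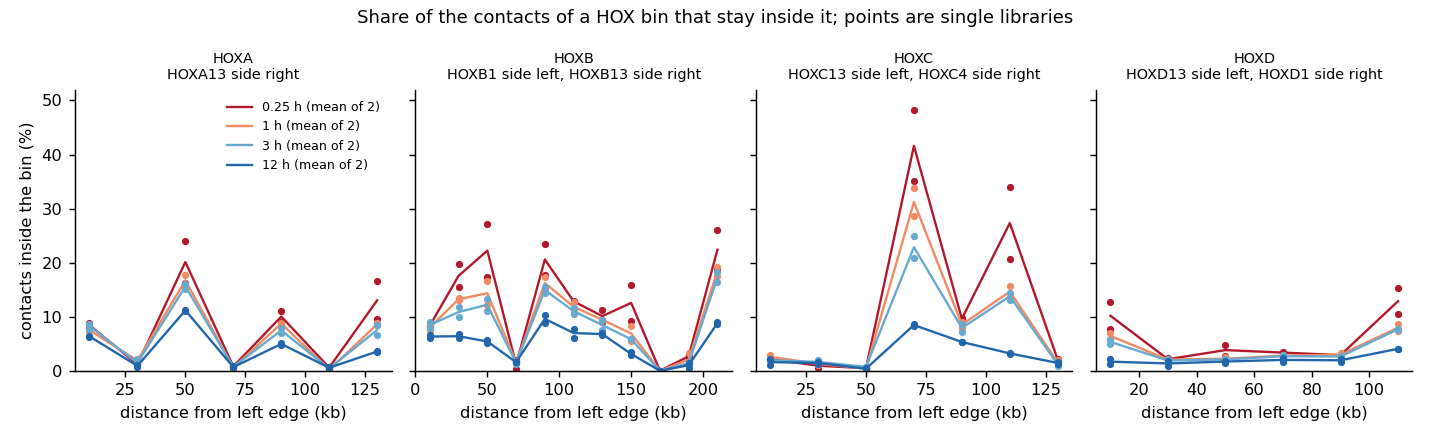
Percent of a bin's contacts that stay inside it (y axis, from 0) against distance from the cluster's left edge in kb, with lines for the mean of 2 libraries per digestion time and points for single libraries. The share goes up and down between neighbouring bins, and in the high bins 0.25 h lies above 12 h, by 41.6% against 8.46% in the highest HOXC bin.

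The shape of the clusters was then compared between 0.25 h and 12 h on balanced signals, and no HOX bin or pair passed in any of 4 tests. For insulation limma called 0 of 134511 bins (0.0%), with 10775 at an unadjusted p under 0.05. Of the 31 HOX bins, whose squares overlap between neighbours, 7 were at an unadjusted p under 0.05, 4 of them in HOXC. The largest was the fifth HOXC bin, at 54.40 Mb, with -0.19 and -0.18 at 0.25 h, 0.05 and -0.08 at 1 h, 0.08 and 0.13 at 3 h, then 0.15 and 0.14 at 12 h (difference -0.33, SE 0.06, adjusted p = 0.455). Its 0.25 h libraries were the lowest of the 8. In HOXA the bin at 27.20 Mb had -1.42 and -1.49 at 0.25 h against -1.35 and -1.18 at 12 h (difference -0.19, SE 0.06, adjusted p = 0.562), and in HOXB the bin at 46.72 Mb had -1.07 and -0.97 against -0.92 and -0.73 (difference -0.19, SE 0.07, adjusted p = 0.581). The HOXD bins differed by 0.08 at most (SE 0.06, adjusted p = 0.725). On recovered contacts without balancing 19 of 31 HOX bins passed, 4 higher and 15 lower, with 42.2% of all bins.

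Contacts within a window of 7 bins centred on each bin gave 0.353% of 136017 bins called and 0 of 31 HOX bins. At an unadjusted p under 0.05 there were 9 of 31 HOX bins and 22263 of all bins, and windows of neighbouring bins overlap. The largest HOX difference was at the HOXA minimum, where the log2 observed over expected was -0.48 and -0.62 at 0.25 h, -0.35 and -0.48 at 1 h, -0.30 and -0.37 at 3 h, then -0.35 and -0.27 at 12 h (difference -0.24, SE 0.07, adjusted p = 0.125). In HOXC the bin at 54.42 Mb had -0.13 and -0.24 at 0.25 h against 0.13 and -0.03 at 12 h (difference -0.23, SE 0.07, adjusted p = 0.153). In HOXD the windows were lowest in the first 3 bins, with -0.54 ± 0.05 (SD, n = 8) at 176.96 Mb and 0.343% of all bins below it. Without balancing 14 of 31 HOX bins passed, all lower, with 52.6% of all bins, and without the first 0.25 h replicate 2 of 31 passed, with 6.47% of all bins.

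For the left-right balance 0.646% of 129971 bins (0.316% higher and 0.329% lower at 0.25 h) and 0 of 31 HOX bins passed. At an unadjusted p under 0.05 there were 7 of 31 HOX bins and 14382 of all bins. The HOXD13 end was nearest to the threshold, with 1.08 and 1.15 at 0.25 h, 1.33 and 1.08 at 1 h, 1.33 and 1.23 at 3 h, then 1.38 and 1.58 at 12 h (difference -0.37, SE 0.11, adjusted p = 0.127). It passed where contacts up to 0.5 Mb alone were used, as 1 of 31 HOX bins, with 0.754% of all bins. In HOXB the bin at 46.78 Mb had -0.75 and -0.54 at 0.25 h against -1.45 and -0.88 at 12 h (difference 0.52, SE 0.23, adjusted p = 0.372), and in HOXA the bin at 27.18 Mb had 1.36 and 1.47 against 1.04 and 0.99 (difference 0.40, SE 0.21, adjusted p = 0.488).

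Of pairs of bins up to 1.5 Mb apart with at least 5 contacts on average, 0.0315% of 2627919 passed (0.029% higher and 0.00247% lower at 0.25 h) and 0 of the 1153 with a HOX bin. At an unadjusted p under 0.05 there were 65 of the 1153 and 152692 of all pairs. The highest HOXD pair described above differed by 0.26 (SE 0.18, adjusted p = 0.908) and the highest HOXB pair by -0.11 (SE 0.22, adjusted p = 0.977). Without the first 0.25 h replicate 20 HOX pairs passed, all lower at 0.25 h, with 1.66% of all pairs. The split of all pairs called turned from 762 higher and 65 lower to 3255 and 40244 without that replicate, and to 465 and 1641 without the second 0.25 h replicate. An adjusted p over the threshold does not show that digestion times are alike.

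Contacts between the clusters, which lie on 4 chromosomes, were almost absent at this depth. Over 8 libraries and 6 pairs of clusters 3 contacts were found. HOXA with HOXD had 1 (in 3 h replicate 2), HOXB with HOXD 1 (in 12 h replicate 1) and HOXB with HOXC 1 (in 12 h replicate 2). From the clusters' contacts between chromosomes 2.26 were expected, so that observed over expected was 1.33, with an exact 95% Poisson interval from 0.273 to 3.87 that covers counting error only. The pairs of HOXA with HOXB, HOXA with HOXC and HOXC with HOXD had 0 contacts. Their exact 95% Poisson intervals reached up to 6.48, 14.7 and 17.3 times the expected number. The flanks of the clusters, 1.5 Mb on each side, gave a background of 2739 contacts where 1882 were expected, a ratio of 1.46 (exact 95% Poisson interval 1.40 to 1.51). By pair of clusters the flanks varied between libraries, from 0.701 to 1.15 for HOXB with HOXD (0.873 over all libraries), from 1.58 to 2.23 for HOXB with HOXC (1.88) and from 1.37 to 3.38 for HOXA with HOXB (1.91). The interval for the 6 pairs together, 0.273 to 3.87, covers 1, so neither an excess nor a lack of contacts between clusters was detected. Times were not compared, since 3 contacts are too few.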

How the data were processed

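Per the labels, K562 nuclei were digested with HindIII for 0.25, 1, 3 or 12 h, with 2 libraries per time. The authors deposited a balanced signal for each pair of bins, in 20 kb bins for the second run and 50 kb bins for the first. HiC-Pro 2.11.1, Bowtie2 2.3.4.1 and hg19 are named in the submitters' processing notes. Since balancing divides contacts by bin factors, whole contacts were recovered by finding those factors; 100% of values came within 0.01 of a whole number. Coverage, the share inside a bin, shares with other chromosomes, contacts between clusters and the check of the cell line used recovered contacts. Filters on contact numbers used recovered contacts too. Insulation, left-right balance and observed over expected within chromosomes used the deposited signal, which balancing makes even between bins, except in alternatives without balancing.

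Each measure was fitted with limma 3.58.1 in R 4.3.3 on the log2 scale (0.5 contacts added to counts), all 4 times in the fit, 0.25 h minus 12 h, with Benjamini-Hochberg adjustment over all bins or pairs and a threshold of 0.05. Bins needed a mean of 100 contacts and pairs a mean of 5. For coverage, libraries with the same replicate number deviated together in all 6 pairings of times (r from 0.11 to 0.254 across bins), so the numbers were taken to pair libraries, and the blocked count is given beside the result. At each time replicate 1 held more contacts than replicate 2 (114338328 and 62777251 at 0.25 h, 176412222 and 153465906 at 12 h). The part of depth in these correlations was not tested. Measures were tested on simulated data. The bins named are, per cluster and test, those with the highest and lowest difference and both ends, and for pairs the 3 highest per cluster. The members, lists and rules were chosen with earlier results of these data known. Alternatives were other normalizations, filters, windows, fits and libraries left out; the filter on contacts inside a bin was added after seeing the data. No genome or gene annotation of hg19 was used, so bins were not assigned to genes and HindIII sites in bins were not counted. Depth differed with time, and its part in the differences was not tested. Counting intervals cover counting error only.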

Additional observations from a re-analysis of the deposited data

How the results depend on the processing

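Of the named bins that were called in the main fit, none changed sign in any alternative run. The fourth bin of HOXB, not called there for the share inside a bin, changed sign without the second 0.25 h replicate. For coverage, the share of HOX bins called was 61.3%, and it ranged from 38.7% (without the second 12 h replicate) to 64.5% with single libraries left out (all bins 40.2% without that replicate); it was 3.23% with contacts between chromosomes only (all bins 6.24%) and 25% in the first run (all bins 27%). For the share inside a bin it was 67.7%, from 51.6% to 71.0% with libraries left out (all bins 54.2% and 64.6% in the same settings). Window contacts gave 0.0% to 6.45% with libraries left out and 45.2% without balancing (all bins 6.47% without the first 0.25 h replicate and 52.6% without balancing). Insulation gave 0.0% with every library left out and 61.3% without balancing (all bins 42.2%). Left-right balance gave 3.23%, 1 of 31 bins, both at 0.5 Mb and without balancing (all bins 0.754% and 4.22%). Bin pairs gave 0.0% to 1.73% (all pairs 1.66% where HOX pairs had 1.73%). The cause of these changes was not tested.

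With the replicate number as a block the shares of HOX bins called were 71.0% for coverage (all bins 60.4%), 67.7% for the share inside a bin (all bins 67.2%), and 0.0% for window contacts, insulation, left-right balance and pairs (all bins 0.495%, 0.0%, 0.698% and 0.0382%). Over the genome the block moved the calls from 480 to 673 windows and from 827 to 1004 pairs. Apart from coverage the numbers were not taken to pair libraries. Correlations of same-numbered libraries were 0.017 to 0.129 for the share inside and 0.031 to 0.068 for windows. They were -0.003 to 0.016 for insulation and -0.006 to 0.01 for balance. For the share inside and windows they were thus above 0 in all 6 pairings, as for coverage, so a pairing there stays possible.

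The lowest insulation scores with squares of 25 bins were -0.88 in HOXA, -0.41 in HOXB, -0.21 in HOXC and -1.01 in HOXD, with squares of 5 bins -0.66 in HOXC and -1.77 in HOXD, and without balancing -1.74, -0.75, -1.12 and -1.24. With libraries left out they ranged from -1.37 to -1.30, -1.11 to -1.06, -0.39 to -0.33 and -1.65 to -1.63. Observed over expected between clusters ranged from 1.00 to 1.55 with libraries left out and was 0 in the first run, with 50 kb bins, where 0.229 contacts were expected and 0 were found, which says nothing at that depth. With 3 contacts between clusters in all, too few at this depth, times were not compared.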
